A study of Mus musculus with 8 samples.

Results

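The 10 genes described here encode the switch that drives cells from G2 into mitosis. They are the kinase *Cdk1*, its CKS subunits *Cks1b* and *Cks2*, the activating phosphatases *Cdc25a*, *Cdc25b* and *Cdc25c*, the inhibitory kinases *Wee1* and *Pkmyt1*, and the mitotic kinases *Plk1* and *Mastl*. They were taken by gene symbol from the 25239 symbols counted in each RNA-Seq library of E14.5 mouse ovaries. No threshold on a measured value picked them, but they were chosen with earlier results of these data known. All 10 passed the filter on low counts, with 83 to 1200 reads in any library.

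The libraries came from 4 control pools (*Bmpr1a* fl/fl) and 4 *Bmpr1a*-cKO pools (*Bmpr1a* fl/fl; *Oct4-Cre* Cre/WT) on a C57BL/6 background, each pool holding the whole ovaries of 2 embryos. The dams, and so embryos of both genotypes, were exposed to 4-hydroxytamoxifen (1 mg to the dam) and progesterone (0.5 mg) given at 9.5 dpc, 10.5 dpc and 11.5 dpc. The inducible Cre was driven by *Oct4*, so that the BMP receptor was to be lost from germ cells while the somatic cells of the same ovaries kept it. Controls carried no Cre, and the presence of Cre cannot be told apart from the loss of the receptor. The comparison asks how the transcripts of the mitotic switch differ in fetal ovaries whose germ cells were to lose this receptor.

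CDK1 bound to a B-type or A-type cyclin phosphorylates the proteins that condense chromosomes and build the spindle. WEE1 in the nucleus and MYT1 (the product of *Pkmyt1*) at membranes hold CDK1 inactive by phosphorylating it, and the CDC25 phosphatases remove those phosphates. PLK1 promotes the activation of CDC25 and the destruction of WEE1, and Greatwall (the product of *Mastl*) blocks the phosphatase PP2A-B55, which would otherwise undo the work of CDK1. In the fetal ovary, germ cells leave the mitotic cycle and enter meiotic prophase, whereas many somatic cells go on dividing.

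The libraries held 8562961 to 15365052 counts and differed from one another within each genotype by more than counting noise, so none was the same library sequenced again. That difference cannot tell separate pools from separate preparations of the same pool. *Bmpr1a* itself, read over the whole gene and the whole ovary, was at 199, 237, 220 and 216 CPM (counts of a gene relative to the scaled library total, by TMM) in controls and at 185, 195, 190 and 209 CPM in *Bmpr1a*-cKO libraries (Log2FC -0.16, FDR = 0.0692 by edgeR), with overlapping values. The study itself reports that BMPR1A staining was lost from germ cells and kept in somatic cells. It also reports lower *Bmpr1a* and *Zglp1*, a BMP target, in mutant ovaries by quantitative PCR. From these same libraries it reports lower *Zglp1* and lower *Msx1* and *Msx2*, which it names as BMP targets too. Germ cell and ovarian somatic markers were present in every library. Log2FC is the log2 fold change of *Bmpr1a*-cKO over control, and FDR is the Benjamini-Hochberg adjusted p over the 14249 genes tested with the quasi-likelihood test of edgeR.

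Of the 10 genes, 7 rose in *Bmpr1a*-cKO ovaries at an FDR below 0.05 and 0 fell, while 17.3% of all genes tested rose and 12.5% fell by the same rule, 29.8% in all. The genes that rose were *Cdk1*, *Cdc25c*, *Wee1*, *Pkmyt1*, *Plk1*, *Cks1b* and *Cks2*. *Cdc25a*, *Cdc25b* and *Mastl* did not pass. For 5 of the 7 the change also exceeded 0.5 in Log2FC, which made them differentially expressed genes (DEGs) as the study defines them, beside 6.11% of all genes tested that were upregulated DEGs and 4.06% that were downregulated ones. For 6 genes every *Bmpr1a*-cKO library lay above every control library, as was so for 16.1% of all genes tested. The median Log2FC was 0.48 over the 10 genes and -0.0042 over all genes tested. In whole ovaries, a larger share of cells that express a gene and more RNA of that gene per cell cannot be told apart.

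**Figure D1:**
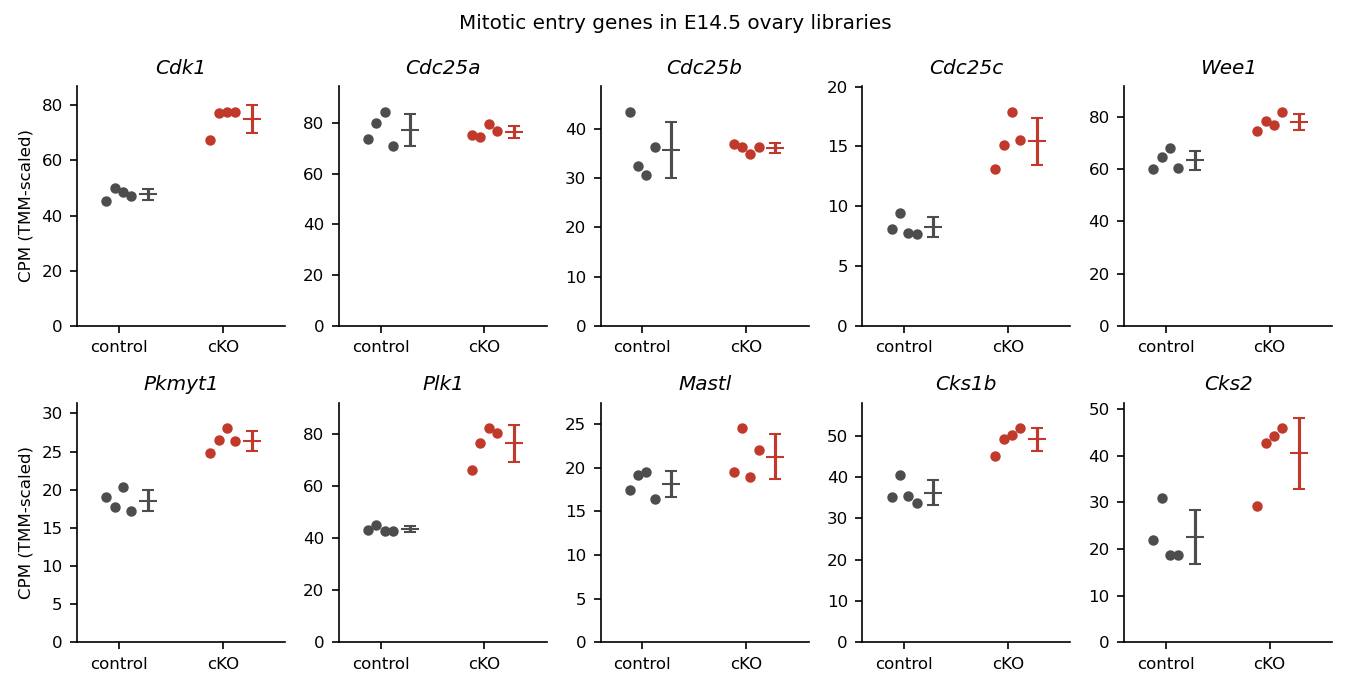
CPM (TMM-scaled, linear axes from 0) of the 10 mitotic entry genes in 4 control (grey) and 4 *Bmpr1a*-cKO (red) E14.5 ovary libraries. Points are libraries in replicate order, and bars are the mean and SD. *Cdk1* and *Plk1* separate fully between genotypes, *Cdc25a* and *Cdc25b* overlap, and *Bmpr1a*-cKO replicate 1 is the lowest red point for 7 of the 10 genes.

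*Cdk1*, the kinase on which the whole switch acts, lies on chromosome 10 at 69335146 to 69352938 (minus strand, mm10, GENCODE vM21). Its level was 45.3, 50.1, 48.4 and 47.1 CPM in controls, and 67.2, 77.2, 77.7 and 77.5 CPM after deletion of *Bmpr1a*. The genotypes did not overlap, and *Bmpr1a*-cKO replicate 1 stood below the other three, which lay between 77.2 and 77.7 CPM. The mean rose from 47.7 ± 2.04 to 74.9 ± 5.11 CPM (SD, n = 4), a 1.57-fold change (Log2FC 0.65, SE 0.067, FDR = 5.24e-06 by edgeR). The study tested these same libraries with edgeR and names *Cdk1* as changed. No direction given here, for *Cdk1* or another gene, is thus independent evidence.

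Both CKS subunits, small proteins that bind CDK1 and help it to phosphorylate its substrates many times over, rose with it. *Cks2* (chromosome 13, 51645232 to 51650660, plus strand) was at 21.9, 31.0, 18.8 and 18.7 CPM in controls and at 29.2, 42.7, 44.2 and 45.9 CPM in *Bmpr1a*-cKO libraries. The lowest *Bmpr1a*-cKO library lay under the highest control library, so the groups overlapped by that pair, and the SE of the *Cks2* change was the largest of the 10 genes. Its mean went from 22.6 ± 5.78 to 40.5 ± 7.64 CPM, 1.81-fold (Log2FC 0.86, SE 0.15, FDR = 0.000689 by edgeR). *Cks1b* (chromosome 3, 89415472 to 89418383, minus strand) was at 35.1, 40.6, 35.5 and 33.8 CPM in controls and at 45.2, 49.3, 50.1 and 51.9 CPM in *Bmpr1a*-cKO libraries, without overlap. Its change was smaller, 1.36-fold (Log2FC 0.44, SE 0.075, FDR = 0.000426 by edgeR), and stayed under the threshold of a DEG. The retrogene *Cks1brt*, a copy of *Cks1b* from which reads could be hard to separate, had 0 counts in every library.

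The 3 CDC25 phosphatases, which switch CDK1 on, did not move together. *Cdc25c* measured 8.14, 9.48, 7.77 and 7.70 CPM in controls and 13.1, 15.1, 17.9 and 15.6 CPM in *Bmpr1a*-cKO libraries. The groups did not overlap, and the mean rose from 8.27 ± 0.825 to 15.4 ± 1.97 CPM, 1.87-fold (Log2FC 0.90, SE 0.12, FDR = 4.60e-05 by edgeR). An exon of *Gm3550* overlaps *Cdc25c* on the opposite strand.

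*Cdc25a*, the family member that also acts at the start of S phase, lies on chromosome 9 at 109875579 to 109893895 (plus strand). It was at 73.5, 80.0, 84.4 and 70.7 CPM in controls and at 75.1, 74.4, 79.6 and 76.6 CPM in *Bmpr1a*-cKO libraries, all of them inside the control range. *Cdc25b* (chromosome 2, 131186949 to 131198497, plus strand), which is known to start CDK1 activation at the centrosome, was at 43.4, 32.4, 30.5 and 36.2 CPM in controls and at 37.0, 36.3, 34.8 and 36.3 CPM in *Bmpr1a*-cKO libraries. The *Bmpr1a*-cKO values again lay within the control range, which control replicate 1 widened upwards. The Log2FC was -0.011 for *Cdc25a* (95% interval -0.15 to 0.13, FDR = 0.921 by edgeR) and 0.015 for *Cdc25b* (95% interval -0.19 to 0.22, FDR = 0.927 by edgeR), intervals that leave out changes as large as that of *Cdk1*. *Spef1* overlaps an exon of *Cdc25b* on the opposite strand and was at 8.83 ± 1.24 CPM in controls and 8.02 ± 0.763 CPM in *Bmpr1a*-cKO libraries (FDR = 0.443 by edgeR).

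The kinases that hold CDK1 back rose as well. *Wee1* (chromosome 7, 110122046 to 110143286, plus strand) was at 60.1, 64.6, 67.9 and 60.5 CPM in controls and at 74.4, 78.5, 76.7 and 81.9 CPM in *Bmpr1a*-cKO libraries, with no overlap. The mean rose 1.23-fold, from 63.3 ± 3.70 to 77.9 ± 3.15 CPM (Log2FC 0.30, SE 0.063, FDR = 0.00215 by edgeR), the smallest change among the 7 genes that rose. *Pkmyt1* (chromosome 17, 23726336 to 23736735, plus strand) was at 19.0, 17.8, 20.3 and 17.2 CPM in controls and at 24.8, 26.5, 28.1 and 26.3 CPM in *Bmpr1a*-cKO libraries. It too separated fully, and its 1.43-fold change (Log2FC 0.51, SE 0.081, FDR = 0.000254 by edgeR) sat just over the threshold of a DEG. It stayed a DEG in 12 of 18 alternative fits and dropped under a Log2FC of 0.5 without control replicate 2 (0.49), control replicate 4 (0.47) or *Bmpr1a*-cKO replicate 3 (0.48), and with upper-quartile (0.48), library size (0.46) or germ cell marker scaling (0.43). *Paqr4*, which overlaps an exon of *Pkmyt1* on the opposite strand, measured 20.2 ± 2.22 and 18.3 ± 0.940 CPM (FDR = 0.301 by edgeR). *Wee2*, the oocyte member of the WEE family, had at most 1 read in any library.

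*Plk1*, the polo-like kinase of mitosis, lies on chromosome 7 at 122159439 to 122169873 (plus strand). It was at 43.3, 45.1, 42.8 and 42.9 CPM in controls and at 66.2, 76.8, 82.4 and 80.7 CPM in *Bmpr1a*-cKO libraries. The controls were tight, and even the lowest *Bmpr1a*-cKO library, replicate 1, was well above all of them. The mean rose 1.76-fold, from 43.5 ± 1.05 to 76.5 ± 7.28 CPM (Log2FC 0.82, SE 0.073, FDR = 1.41e-06 by edgeR). *Gm44985* overlaps an exon of *Plk1* on the opposite strand.

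*Mastl* (chromosome 2, 23115606 to 23156024, minus strand) was at 17.5, 19.2, 19.6 and 16.4 CPM in controls and at 19.6, 24.5, 18.9 and 22.0 CPM in *Bmpr1a*-cKO libraries. The groups overlapped, and the difference missed the threshold (18.2 ± 1.48 against 21.3 ± 2.56 CPM, Log2FC 0.24, 95% interval 0.032 to 0.45, FDR = 0.0784 by edgeR). Without *Bmpr1a*-cKO replicate 1 it passed (Log2FC 0.28, FDR = 0.0436 by edgeR), and over the 8 fits that each left out 1 library the FDR ran from 0.0436 to 0.288.

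**Figure D2:**
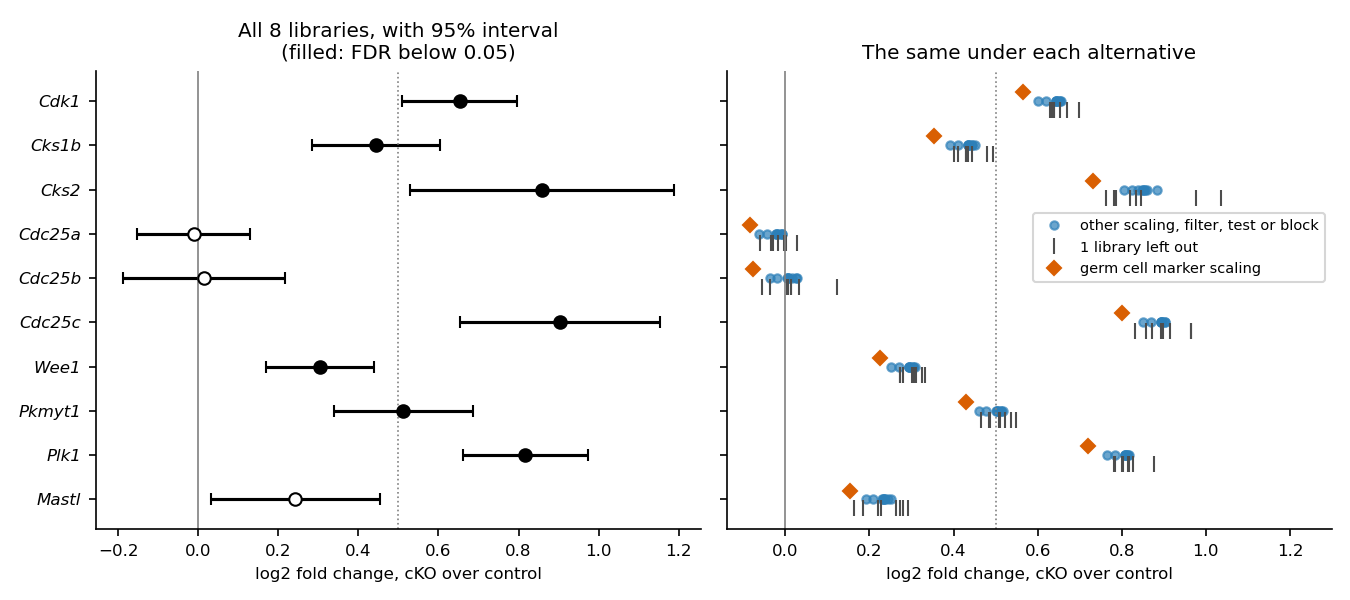
Log2 fold change of *Bmpr1a*-cKO over control for the 10 genes. Left, the estimate from all 8 libraries with its 95% interval, filled where FDR is below 0.05; right, the estimates under other scalings, filters, tests or the replicate block (blue), with 1 library left out (ticks) and with germ cell marker scaling (orange). The dotted line is the DEG threshold of 0.5. *Cdk1*, *Cdc25c*, *Plk1* and *Cks2* stay right of it throughout, while *Pkmyt1* falls on both sides.

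*Bmpr1a*-cKO replicate 1 was the lowest of its group for 7 of the 10 genes, and control replicate 4 was the lowest of its group for 6. The summed CPM of 8 germ cell markers was 674 in *Bmpr1a*-cKO replicate 1 and 908, 929 and 1050 in the other *Bmpr1a*-cKO libraries, and it was 627, 723, 850 and 651 in controls 1 to 4. The fit was repeated with each library scaled to the geometric mean of those markers, and 4 of the 10 genes stayed at an FDR below 0.05, namely *Cdk1* (Log2FC 0.56, FDR = 0.0164), *Cdc25c* (0.80, FDR = 0.00137), *Plk1* (0.72, FDR = 0.000853) and *Cks2* (0.73, FDR = 0.000874, all by edgeR). *Wee1* (0.23, FDR = 0.532), *Pkmyt1* (0.43, FDR = 0.141) and *Cks1b* (0.35, FDR = 0.238) no longer passed, and the median Log2FC of all genes tested moved to -0.087. With that scaling 1228 genes were DEGs in place of 1449. The share of all genes at an FDR below 0.05 was not counted there, so a general loss of calls cannot be told from one in these genes. Of the 8 markers, 3 rose and 2 fell themselves. *Dazl* rose (Log2FC 0.63, FDR = 0.00101), whereas *Ddx4* did not pass (Log2FC 0.11, FDR = 0.561, by edgeR). Alone, *Dazl* held 327 of the mean sum of 713 CPM in controls and 506 of 890 CPM in *Bmpr1a*-cKO libraries. That sum thus cannot be read as germ cell content.

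The same libraries allow each gene to be read against *Cdk1* within a library, which removes the scaling between libraries. The log2 ratio to *Cdk1* was formed from counts with 0.5 added, and its mean was compared between genotypes by an exact permutation test (two-sided, 70 arrangements, smallest possible p = 0.0286), adjusted over the 9 ratios, all of which share *Cdk1*. The *Plk1* ratio was -0.064, -0.15, -0.18 and -0.13 in controls and -0.023, -0.0070, 0.085 and 0.058 in *Bmpr1a*-cKO libraries. *Plk1* thus gained on *Cdk1* in every *Bmpr1a*-cKO library, by 0.16 on average (SE 0.036, exact permutation p = 0.0286, adjusted p = 0.0367). *Cdc25c* also gained on *Cdk1*, by 0.24 (SE 0.080), with the same p and no overlap. Both p are the smallest possible, and the adjusted p of 0.0367 depends on 7 of the 9 ratios reaching that floor. Of those 7, 5 are the lower ratios described next, which a gene that did not change would also give. The adjusted p is thus no separate support for *Plk1* or *Cdc25c*.

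Of the ratios, 5 were lower in every *Bmpr1a*-cKO library than in any control, each with an exact permutation p of 0.0286 (adjusted p = 0.0367). They were those of *Cdc25a* (difference -0.66, SE 0.064), *Cdc25b* (-0.62, SE 0.15), *Mastl* (-0.43, SE 0.091), *Wee1* (-0.35, SE 0.046) and *Cks1b* (-0.21, SE 0.044). Since *Cdk1* itself rose (Log2FC 0.65), any gene that did not change, such as *Cdc25a* or *Cdc25b*, gives a lower ratio. The share of all genes whose ratio to *Cdk1* separates was not computed, so the count is not a result particular to these genes. The log2 ratio of *Cdc25a* to *Cdk1* counts was 0.70, 0.67, 0.80 and 0.59 in controls and 0.16, -0.052, 0.035 and -0.017 in *Bmpr1a*-cKO libraries. These ratios are not divided by gene length, so only their difference between genotypes, and not their sign, can be read. For *Pkmyt1* (-0.14, SE 0.070, exact permutation p = 0.143) and *Cks2* (0.20, SE 0.18, exact permutation p = 0.314) the groups overlapped, and no difference from the change of *Cdk1* was detectable with 4 libraries a group.

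**Figure D3:**
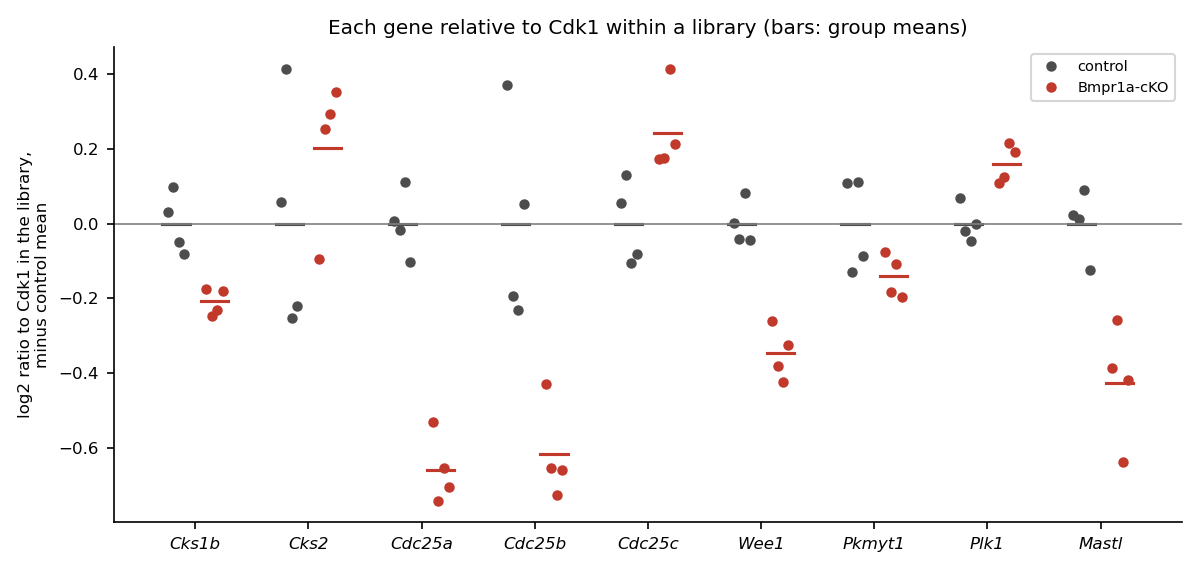
Log2 ratio of each gene to *Cdk1* within a library, from counts with 0.5 added, minus the control mean of that gene, for 4 control (grey) and 4 *Bmpr1a*-cKO (red) libraries with bars at group means. The ratios of *Plk1* and *Cdc25c* lie above the controls, those of *Cks1b*, *Cdc25a*, *Cdc25b*, *Wee1* and *Mastl* below them, and those of *Cks2* and *Pkmyt1* overlap.

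Levels of different genes can be compared only per length. Divided by the summed length of all annotated exons, which counts the exons of every transcript, the level in controls ran from 32.7 ± 8.35 CPM per kb for *Cks2* and 32.2 ± 2.68 for *Cks1b*, through 19.8 ± 0.479 for *Plk1* and 18.5 ± 1.08 for *Wee1*, to 9.67 ± 0.414 for *Cdk1*, 9.61 ± 0.773 for *Cdc25a* and 9.56 ± 1.53 for *Cdc25b*. *Pkmyt1* (5.10 ± 0.377 CPM per kb), *Mastl* (3.15 ± 0.257) and *Cdc25c* (1.68 ± 0.168) were lowest. In controls the CKS pair, *Plk1* and *Wee1*, and *Cdk1* with *Cdc25a* and *Cdc25b* could not be ordered, as their means were closer than the sum of their SDs. In *Bmpr1a*-cKO libraries *Plk1* (34.8 ± 3.31 CPM per kb) stood apart from *Wee1* (22.8 ± 0.921), and *Cdk1* (15.2 ± 1.04) from *Cdc25b* (9.68 ± 0.251) and *Cdc25a* (9.53 ± 0.283). The other levels were 58.5 ± 11.0 for *Cks2*, 43.6 ± 2.51 for *Cks1b*, 7.25 ± 0.365 for *Pkmyt1*, and 3.68 ± 0.443 for *Mastl* and 3.13 ± 0.400 for *Cdc25c*, of which the last pair could not be ordered.

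Within the CDC25 family the sum of the levels per kb was 20.9 ± 1.09 in controls and 22.3 ± 0.419 in *Bmpr1a*-cKO libraries. *Cdc25c* made up 8.08% ± 0.876 of it in controls (7.37% to 9.36%) and 14.0% ± 1.54 in *Bmpr1a*-cKO libraries (12.2% to 15.9%). The sum of *Wee1* and *Pkmyt1* was 23.6 ± 1.35 CPM per kb in controls and 30.0 ± 1.08 in *Bmpr1a*-cKO libraries, of which *Pkmyt1* was 21.6% ± 1.01 and 24.2% ± 0.998. The summed level of the inhibitory kinases separated between genotypes (22.4 to 25.4 against 28.6 to 31.2 CPM per kb), whereas that of the phosphatases overlapped (20.1 to 22.5 against 21.9 to 22.9). Among single genes, 16.1% of all tested had every *Bmpr1a*-cKO library above every control. The phosphatase sum was mostly *Cdc25a* and *Cdc25b* (46.2% and 45.7% in controls), which did not change. Neither *Wee1* nor *Pkmyt1* passed with germ cell marker scaling, and no difference between the sums was tested.

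Promoters of genes that peak in G2 and M phase often hold a cell cycle homology region (CHR) with CCAAT boxes beside it, and promoters of G1/S genes often hold E2F sites. The 300 bases from 250 before to 50 after the start of transcription were read for 7 of the 10 genes from the RefSeq promoter table (GRCm38.p6, the assembly of mm10). *Cdc25c*, *Wee1* and *Pkmyt1* had no entry. Windows of 4 genes are shown, of which the first pair belongs to genes that rose and the second to genes that did not, so that the arrangement can be compared. They are *Cdk1* (chr10:69352863-69353162, minus strand), *Plk1* (chr7:122159185-122159484, plus strand), *Cdc25a* (chr9:109875329-109875628, plus strand) and *Cdc25b* (chr2:131186698-131186997, plus strand), written 5′ to 3′ on the strand of the gene. Capitals mark CHR matches (TTTGAA or TTCGAA) and CCAAT boxes (CCAAT) on either strand, where a box on the other strand reads ATTGG.
Cdk1: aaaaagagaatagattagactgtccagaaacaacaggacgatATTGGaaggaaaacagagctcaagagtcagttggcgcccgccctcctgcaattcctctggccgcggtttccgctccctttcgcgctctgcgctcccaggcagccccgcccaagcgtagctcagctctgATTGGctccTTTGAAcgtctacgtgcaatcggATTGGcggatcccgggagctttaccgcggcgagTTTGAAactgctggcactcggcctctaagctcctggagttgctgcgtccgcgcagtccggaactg
Plk1: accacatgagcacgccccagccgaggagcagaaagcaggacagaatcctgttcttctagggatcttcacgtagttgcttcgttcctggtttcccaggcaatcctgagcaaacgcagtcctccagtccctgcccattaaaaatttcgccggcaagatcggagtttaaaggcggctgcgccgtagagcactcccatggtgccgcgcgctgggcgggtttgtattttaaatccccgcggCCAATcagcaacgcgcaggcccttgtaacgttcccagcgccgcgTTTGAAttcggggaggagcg
Cdc25a: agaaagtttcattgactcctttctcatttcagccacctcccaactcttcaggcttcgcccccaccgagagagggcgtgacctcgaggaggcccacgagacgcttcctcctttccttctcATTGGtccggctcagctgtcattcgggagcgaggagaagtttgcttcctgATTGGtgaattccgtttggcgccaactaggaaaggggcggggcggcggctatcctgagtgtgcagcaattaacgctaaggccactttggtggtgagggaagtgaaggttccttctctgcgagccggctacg
Cdc25b: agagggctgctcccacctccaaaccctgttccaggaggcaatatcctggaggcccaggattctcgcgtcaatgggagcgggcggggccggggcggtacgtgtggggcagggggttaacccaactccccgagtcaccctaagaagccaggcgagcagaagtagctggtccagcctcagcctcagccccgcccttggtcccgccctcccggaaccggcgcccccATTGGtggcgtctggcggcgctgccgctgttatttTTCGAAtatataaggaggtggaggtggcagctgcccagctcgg

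*Cdk1* held 2 CHR matches, from -71 to -66 and from -15 to -10 relative to the start base (position 0), and 3 CCAAT boxes. *Plk1* held 1 CHR match from 30 to 35 and 1 CCAAT box from -14 to -10, and *Cdc25b*, which did not change, also held a CHR match, from 7 to 12, and a CCAAT box. *Cdc25a* held 2 CCAAT boxes and no CHR match, and it had E2F letters (TTCCCGC or TTGGCGC, either strand), in 2 overlapping matches on opposite strands. Of the 7 promoters, 4 held a CHR match (*Cdk1*, *Plk1*, *Cdc25b* and *Cks1b*), 7 a CCAAT box and 2 an E2F match (*Cdk1* and *Cdc25a*), whereas 19.2%, 37.4% and 6.81% of all 32851 promoter windows held each. Both a CHR match and a CCAAT box were in the same 4 promoters and in 7.52% of all windows. These letters are matches and not shown sites, and they were found in genes that rose and in genes that did not.

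The other genes of the switch were read from lists written from textbook roles. Beyond the 10 genes, 36 genes in 7 lists were tested, of which 19 rose, 2 fell and 15 did not pass (median Log2FC 0.20). Beside these counts and those of each list below stand the 17.3% of all genes tested that rose and the 12.5% that fell, and in a list of so few genes a single gene can match that share. All 3 cyclin partners of CDK1 rose. *Ccnb1*, the main mitotic cyclin, rose from 88.3 ± 6.91 to 215 ± 8.94 CPM (Log2FC 1.29, FDR = 6.92e-09 by edgeR), a larger Log2FC than that of any of the 10 genes. *Ccna2* rose from 109 ± 5.19 to 169 ± 6.61 CPM (Log2FC 0.63, FDR = 1.69e-06 by edgeR), and *Ccnb2* rose less (Log2FC 0.28, FDR = 0.0124 by edgeR). The study names *Ccnb1* and *Ccna2* as changed from these same libraries, so their direction here is not independent evidence.

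Upstream of PLK1, the kinase *Aurka*, which activates it, rose from 34.9 ± 4.27 to 55.1 ± 3.18 CPM (Log2FC 0.66, FDR = 3.88e-05 by edgeR). Its cofactor *Bora* (Log2FC 0.33, FDR = 0.0105) and the AURKA-binding spindle protein *Tpx2* (Log2FC 0.19, FDR = 0.0246, by edgeR) rose as well, each with a smaller Log2FC than *Plk1*. Of the CDK-activating kinase, the assembly factor *Mnat1* rose (Log2FC 0.32, FDR = 0.00815 by edgeR), while the kinase *Cdk7* (0.15, FDR = 0.0620) and its cyclin *Ccnh* (-0.060, FDR = 0.538) did not pass.

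Downstream of Greatwall, 4 of 6 genes rose, all of them subunits of PP2A, the phosphatase that Greatwall restrains. They were the catalytic subunit *Ppp2ca* (Log2FC 0.44, FDR = 5.46e-05), the B55 subunits *Ppp2r2d* (0.30, FDR = 0.00307) and *Ppp2r2a* (0.20, FDR = 0.0459) and the scaffold *Ppp2r1a* (0.29, FDR = 0.00225, all by edgeR). PP2A subunits serve many other processes besides. The direct Greatwall substrates *Arpp19* (Log2FC -0.005, FDR = 0.966) and *Ensa* (0.030, FDR = 0.735, by edgeR), named here after their values were seen, did not pass, like *Mastl*.

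The checkpoint list was mixed, with 2 genes higher, 1 lower and 3 that did not pass. *Atr*, a kinase of the DNA replication checkpoint that is also active in meiotic prophase, fell from 233 ± 19.8 to 145 ± 20.4 CPM (Log2FC -0.69, FDR = 5.38e-05 by edgeR). *Chek2*, a checkpoint kinase that phosphorylates CDC25, rose (0.45, FDR = 0.00485), as did *Fbxw11*, an F-box protein of the ligase that degrades CDC25A and WEE1 (0.32, FDR = 0.00202, by edgeR). Of 7 regulators of G2/M transcription 1 rose, *Mybl2* (Log2FC 0.32, FDR = 0.0219), a share near that of all genes. *Foxm1*, named after its value was seen, was at 57.1 ± 3.19 CPM in controls and 60.4 ± 1.44 CPM in *Bmpr1a*-cKO libraries (Log2FC 0.081, FDR = 0.364 by edgeR).

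Of 8 other mitotic kinases, 5 rose, 1 fell and 2 did not pass. *Aurkb*, the kinase of the chromosomal passenger complex, rose from 32.9 ± 1.55 to 61.7 ± 3.53 CPM (Log2FC 0.91) and the checkpoint protein *Bub1b* from 78.9 ± 2.29 to 132 ± 5.34 CPM (Log2FC 0.74, FDR = 2.93e-07 by edgeR for both). The centrosomal kinase *Nek2* (0.41, FDR = 0.0022) and *Melk* (0.37, FDR = 0.0042, by edgeR) rose too. *Bub1*, the single gene that fell and named for that reason, went from 149 ± 11.8 to 117 ± 15.0 CPM (Log2FC -0.35, FDR = 0.00552 by edgeR).

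Outside G2 and M phase, the G1 kinase *Cdk4* rose (Log2FC 0.43, FDR = 3.33e-05), whereas *Cdk2* (0.039, FDR = 0.694) and *Cdk6* (-0.088, FDR = 0.353, by edgeR) did not pass. Among other polo-like kinases, *Plk3*, a stress-responsive relative at 3.16 ± 0.496 CPM in controls and 6.11 ± 0.213 CPM in *Bmpr1a*-cKO libraries, rose (Log2FC 0.97, FDR = 0.000281), and *Plk2* did not pass (-0.15, FDR = 0.217, by edgeR). Of 12 S phase genes, 9 rose and 0 fell, with a median Log2FC of 0.26, led by the replicative helicase subunits *Mcm2* (0.56, FDR = 1.09e-05) and *Mcm7* (0.45, FDR = 0.000342), the loading factor *Cdc6* (0.40, FDR = 0.00118) and *Tyms* (0.32, FDR = 0.00544, by edgeR).

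**Figure D4:**
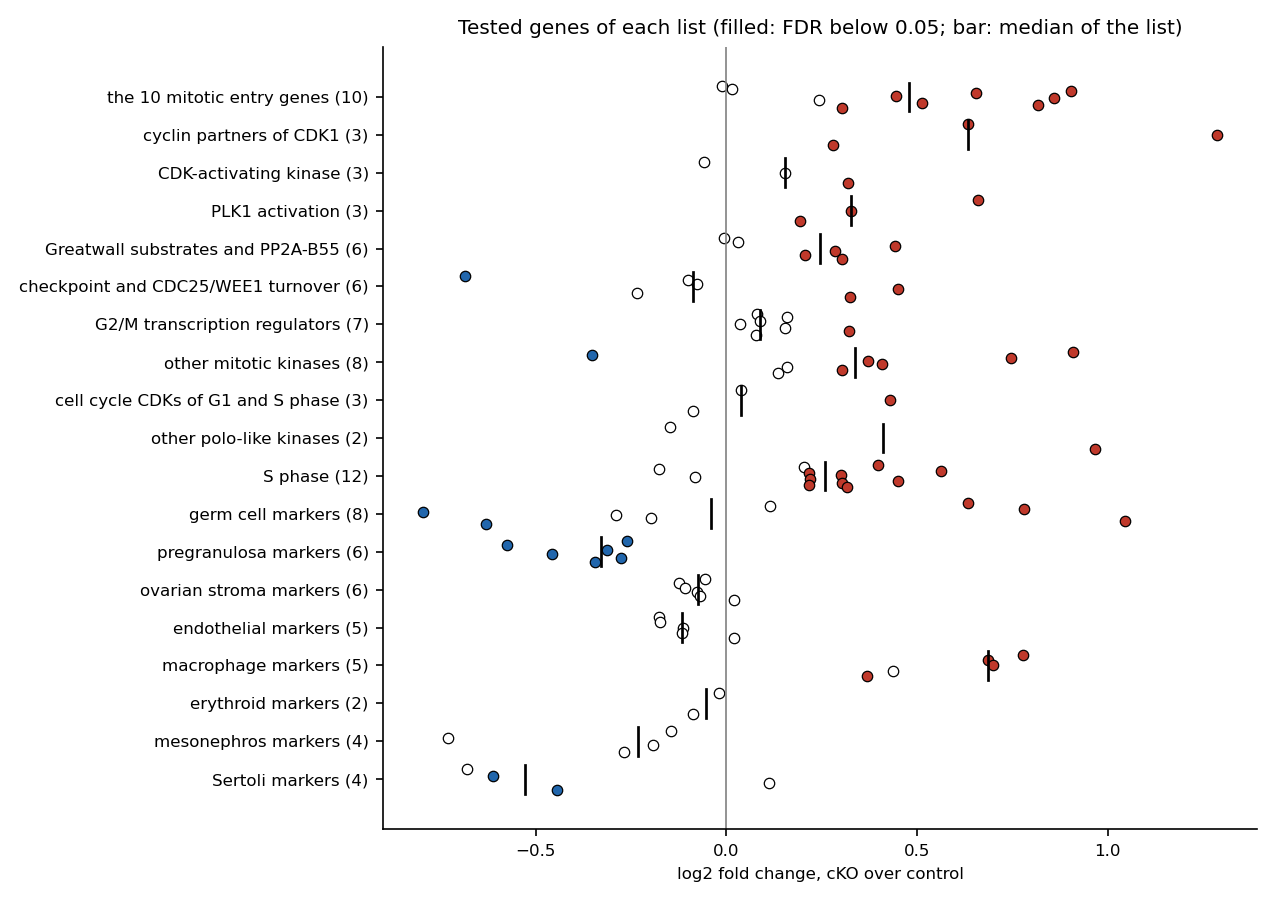
Log2 fold change of *Bmpr1a*-cKO over control for each tested gene of the 10 mitotic entry genes, of the related lists and of the cell type markers, with the number of tested genes in brackets. Filled points passed an FDR of 0.05 (red higher, blue lower) and bars are list medians, 0.48 for the mitotic entry genes, 0.63 for the cyclins, 0.087 for the G2/M transcription regulators and 0.26 for S phase.

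Markers of other cells moved with genotype too, and their part in the changes of the 10 genes was not tested. All 6 pregranulosa markers fell, the summed CPM being 899 to 960 in controls and 661 to 849 in *Bmpr1a*-cKO libraries. Of 5 macrophage markers 4 rose, with a summed CPM of 21.3 to 27.7 in controls and 31.8 to 39.9 in *Bmpr1a*-cKO libraries. Of 4 Sertoli markers, 2 fell, and the summed CPM of all 4 was 14.1 to 16.3 in controls and 10.8 to 11.6 in *Bmpr1a*-cKO libraries. No marker of stroma (0 of 6), endothelium (0 of 5), mesonephros (0 of 4) or erythroid cells (0 of 2 tested, with *Hbb-bt*, *Hba-a1* and *Hba-a2* at 0 in every library) passed.

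*Cdk1* was also compared with every other gene by the root mean square difference of log2 CPM, each gene centred on its own mean over the 8 libraries. Since the genotype difference is part of that pattern, the measure favours genes that changed by the same amount. The 10 genes most like *Cdk1* were *Hspa14* (0.034), *Sos1* (0.041), *Klf8* (0.045), *Ube2d1* (0.048), *Rif1* (0.050), *Spc25* (0.052), *Kif18b* (0.055), *Eaf1* (0.055), *Smc1a* (0.058) and *Tbc1d22b* (0.058), against a median difference of 0.37 over 14248 genes. None of the other 9 mitotic entry genes was among them. The nearest was *Plk1*, at rank 81 with a difference of 0.091, followed by *Pkmyt1* at rank 169, *Cks1b* at 204 and *Cdc25c* at 471, while *Cdc25a* and *Cdc25b* stood at ranks 5640 and 6680.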

How the data were processed

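Whole ovaries of E14.5 embryos were pooled in pairs of embryos into 4 control and 4 *Bmpr1a*-cKO libraries, drawn from 8 embryos of each genotype across 6 litters, and the litter of each library was not used. The authors prepared strand-specific libraries, trimmed reads with Trimmomatic 0.39, checked them with FastQC 0.11.9 (versions from the submitters' processing notes), mapped them to mm10 with STAR 2.5.2, and deposited the counts of reads per gene as whole numbers without normalization. The annotation and strand setting of that counting are not given in the sources used here, so exonic overlaps on the opposite strand are named beside a gene. A CPM table of the authors was not used here.

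From the counts, CPM were computed and genotype was tested in edgeR 4.0.16 under R 4.3.3 (filterByExpr by genotype, TMM, quasi-likelihood F test, two-sided, Benjamini-Hochberg over 14249 genes) and checked on simulated data. No sample was left out. TMM factors were 1.00 to 1.03 in controls and 0.972 to 0.990 in *Bmpr1a*-cKO libraries, and 3 counts, the limit that a count of 0 allows, corresponded to 0.189 to 0.358 CPM, for counting error only. Log2 CPM for the likeness measure carried a prior count of 2. Gene positions and exon lengths came from GENCODE vM21.

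The genes and lists were chosen with earlier results of these data known. Named were the 10 genes, in each other list up to 4 genes with the largest change at an FDR below 0.05 and every gene of lists of 3 or fewer, the 10 genes most like *Cdk1*, and the germ cell markers *Ddx4* and *Dazl*. One listed germ cell marker, *Gcna*, was not matched. Alternatives were 4 scalings (RLE, upper quartile, germ cell markers, library size), 2 filters, DESeq2 1.42.0, limma-voom (limma 3.58.1), a replicate block, 1 library left out at a time, no fold threshold, another pseudocount for ratios and, chosen after seeing the data, *Rn45s* removed.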

Additional observations from a re-analysis of the deposited data

Results flagged for a closer look

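Among 52 sets of 4 values tested for a library far from the rest, 2 were marked by the Dixon criterion (a gap that takes up nearly the whole range), and chance marks about 1 in 20 such sets. *Cdk1* in *Bmpr1a*-cKO replicate 1 stood at 67.2 CPM, and its gap to the nearest library of the genotype was 0.954 of the group's range. The log2 ratio of *Cdc25c* to *Cdk1* in *Bmpr1a*-cKO replicate 3 was -2.11, above the other *Bmpr1a*-cKO libraries, with a gap of 0.838 of the range.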

How the results depend on the processing

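*Cdk1*, *Cdc25c*, *Plk1* and *Cks2* stayed at an FDR below 0.05 and a Log2FC above 0.5 in all 18 alternative fits, and *Wee1*, *Pkmyt1* and *Cks1b* stayed at an FDR below 0.05 in 17. The exception was germ cell marker scaling, with 4 of the 10 genes at an FDR below 0.05 in place of 7, and 586 of 1228 DEGs higher (47.7%) in place of 871 of 1449 (60.1%). Without a fold threshold 4242 genes passed (2461 higher and 1781 lower). With library size alone 50.8% of the DEGs were higher. The Log2FC of *Cdc25a* turned to 0.027 without control replicate 3 and to 0.0021 without *Bmpr1a*-cKO replicate 2, and that of *Cdc25b* to -0.020 with upper-quartile scaling, -0.036 with library size alone, -0.078 with germ cell marker scaling, -0.036 without control replicate 2 and -0.056 without control replicate 3. Over single libraries left out, *Cdc25a* ran from -0.061 to 0.027 and *Cdc25b* from -0.056 to 0.12. None of these passed, and the cause was not tested. Leaving out single libraries gave 1288 to 1627 DEGs, of which 762 to 1000 were higher and 501 to 666 lower, with 4 to 5 of the 10 genes among the DEGs and 7 to 8 at an FDR below 0.05. The ratios to *Cdk1* kept their direction. With 3 against 4 libraries the exact permutation test has too few arrangements to reach 0.05, whatever the values. Their lowest adjusted p was 0.0735 by that test, which thus cannot show a loss of support.

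With the replicate number as a block, 1457 genes were DEGs, and 5 and 7 of the 10 genes passed as before. The deviations of same-numbered libraries from their group means correlated at 0.198, 0.161, 0.108 and -0.0871 for numbers 1 to 4, and not every library correlated best with its own number, so the numbers were not taken to pair the libraries. An exact sign-flip permutation test over the 4 same-numbered pairs cannot go below p = 0.125 for the ratios.

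Each value rests on 4 pools of 2 embryos, so pooling, animals and library preparation are not separated. Single-library counts of *Cdc25c* were the lowest of the 10 genes, and counting error weighs most there.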
